A study of Mus musculus with 6 samples.

Results

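The enzymes of haem synthesis and breakdown were followed in liver RNA of *Txndc5*-deficient (KO) and wild type (WT) mice. The 9 genes *Alas1*, *Alad*, *Uros*, *Urod*, *Cpox*, *Ppox*, *Fech*, *Hmox1* and *Blvra* were taken by their symbols from the 16123 genes of the deposited table, and all 9 were found there. RNAseq was performed on 3 pools of each genotype, each made from the livers of 3 male mice. The mice entered the experiment when 2 months old, received a purified chow diet for 4 weeks and were fasted for 16 h before sacrifice. WT mice carried the strain label C57BL/6Rj and KO mice the label C57BL/6JRj-Txndc5<em2Mdnp>/Ciba. KO mice lacked exon 3 of *Txndc5*, a protein disulfide isomerase of the endoplasmic reticulum, in the whole body, and descended from a single edited founder. Both genotypes came from crosses of heterozygous mice. Diet and fasting were shared by both, so no fed mice were compared.

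Haem is built in steps that begin and end in mitochondria. ALAS1 makes aminolaevulinic acid and sets the pace of the pathway in liver, where haem represses it and fasting induces it. Cytosolic enzymes, among them ALAD, UROS and UROD, then build and trim the porphyrin ring, and CPOX, PPOX and FECH complete haem back in mitochondria. Most hepatic haem goes to cytochromes P450. Haem oxygenase 1, encoded by *Hmox1*, opens the ring to biliverdin and is induced by haem and oxidative stress, and biliverdin reductase A, encoded by *Blvra*, turns biliverdin into bilirubin.

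No enzyme of the pathway was listed with a change of 1.5-fold or more between the genotypes. The values of *Alas1*, *Cpox* and *Fech* were 24.8%, 23.4% and 19.2% higher in KO, and those of *Hmox1* and *Blvra* 14.9% and 14.3% higher. *Ppox*, *Alad*, *Urod* and *Uros* were within 1.06-fold between the genotypes. These are ratios of 1 deposited value per genotype, without a spread between pools, so none of them was tested.

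The promoters of *Alas1* and *Cpox*, the members with the highest KO to WT ratios, and of *Uros*, the member with the lowest, are shown so that their letters can be set beside these ratios. Windows from RefSeq on GRCm38.p6 were held for 7 of the 9 genes, and the window listed first for each gene is printed. They run 5′ to 3′ on the strand of the gene, from 250 bases before a transcription start to 50 bases after it. *Alas1* is at chr9:106247905-106248204 (minus strand), *Cpox* at chr16:58669958-58670257 (plus strand) and *Uros* at chr7:133709246-133709545 (minus strand), with the matches of the motifs described next in capitals.
Alas1: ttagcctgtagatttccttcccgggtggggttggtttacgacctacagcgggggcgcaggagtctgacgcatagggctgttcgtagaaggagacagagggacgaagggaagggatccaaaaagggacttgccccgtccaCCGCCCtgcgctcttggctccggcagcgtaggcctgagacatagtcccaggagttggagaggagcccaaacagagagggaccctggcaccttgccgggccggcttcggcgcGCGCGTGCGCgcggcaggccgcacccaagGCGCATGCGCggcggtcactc
Cpox: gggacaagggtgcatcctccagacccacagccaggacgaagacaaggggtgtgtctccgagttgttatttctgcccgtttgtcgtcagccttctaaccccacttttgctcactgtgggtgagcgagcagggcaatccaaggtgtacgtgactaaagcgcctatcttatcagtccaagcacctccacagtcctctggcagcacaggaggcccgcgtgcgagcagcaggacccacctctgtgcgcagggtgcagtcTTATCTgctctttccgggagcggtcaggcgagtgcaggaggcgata
Uros: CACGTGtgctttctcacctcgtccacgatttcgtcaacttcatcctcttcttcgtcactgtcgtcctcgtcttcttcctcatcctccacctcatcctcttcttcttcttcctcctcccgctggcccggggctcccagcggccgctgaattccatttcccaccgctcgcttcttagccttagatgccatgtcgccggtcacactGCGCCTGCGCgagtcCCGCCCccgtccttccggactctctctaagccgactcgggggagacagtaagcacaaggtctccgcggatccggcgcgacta

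On both strands 11 motifs were searched. The NRF1 motif occurred in the windows of *Alas1* and *Uros* and in 4.6% of all 32851 windows, and its core in *Alas1* and in 1.87%. In the *Alas1* window shown, the NRF1 matches began at bases 1 and 30 of the transcript, and the core lies inside the latter. A further *Alas1* window, with a start downstream, held the same matches 224 and 195 bases before that start. *Alad*, *Alas1* and *Uros* had 2 windows each. A match in either was counted for the gene, while the percentages are per window. The GATA letters AGATAA were present in *Cpox* (11.2% of all windows), the antioxidant response letters TGACNNNGC in *Blvra* (12.4%), and the E-box CACGTG in *Alad*, *Urod* and *Uros* (7.15%). CCAAT was found in *Ppox*, *Blvra*, *Alad* and *Urod* (37.4%), and the GC box GGGCGG in *Ppox*, *Alad*, *Urod*, *Uros* and *Alas1* (35.7%). None of the 7 genes held the AP-1 letters TGACTCA (5.2%), TATAAA (13.6%), the nuclear receptor element AGGTCA (16.3%) or the cyclic AMP response element (1.79%). These matches describe the letters of the windows, and the motifs were chosen with the ratios of these genes known.

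The libraries held between 44.0 M and 46.05 M clean reads in WT and KO together, with 91.6% to 93.7% of them mapped. The authors deposited a value per genotype and gene on the scale of normalized reads, that is reads divided by a size factor per library, and these values combine the 3 pools. Their ratio was drawn toward 1 by the authors' model, most of all in weakly expressed genes. *Txndc5* itself was listed at 2697 in WT and 90.8 in KO. Of the 16123 genes, 11367 had a mean of the 2 values of at least 10, all 9 haem enzymes among them, and the median log2 ratio of KO over WT over these genes was −0.05.

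*Alas1* (NCBI Gene 11655, chromosome 9 from 106233455 to 106248654 in GRCm38, minus strand) was listed at 19344 normalized reads in WT and 24144 in KO. KO was 24.8% above WT, a log2 ratio of 0.32. It was larger than the log2 ratio of 91.6% of the 11367 genes. Its level per kilobase of transcript, 8047 as the mean of the genotypes, was the highest of the 9, followed by 1163 for *Urod* and 870 for *Alad*. The enzyme that sets the pace of haem synthesis was the most abundant of the 9 transcripts per kilobase.

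The cytosolic steps were listed at nearly equal values in both genotypes. *Alad* (chromosome 4 from 62509169 to 62519918), whose enzyme joins aminolaevulinic acid to porphobilinogen, had 4004 normalized reads in WT and 3885 in KO. *Uros* (chromosome 7 from 133686243 to 133710072), which closes the ring to uroporphyrinogen III, had 169 in WT and 160 in KO. *Urod* (chromosome 4 from 116989965 to 116994413), which removes its carboxyl groups, had 1778 in WT and 1686 in KO. Their log2 ratios of −0.04, −0.08 and −0.08 were close to the median of all genes. Scaling both columns to the same sum moved every gene by the same amount, so that these 3 ratios became 0.05, 0.02 and 0.02 and the median of all genes 0.05, with the place of the 3 among all genes as before.

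The last steps, which return to mitochondria, differed among themselves. *Cpox* (chromosome 16 from 58670292 to 58717636), which oxidizes coproporphyrinogen, was listed at 1354 normalized reads in WT against 1672 in KO, for a log2 ratio of 0.30 that exceeded those of 90.8% of genes. *Ppox* (chromosome 1 from 171275990 to 171281186), the next oxidase, had 178 in WT against 179 in KO, for a log2 ratio of 0.01. *Fech* (chromosome 18 from 64452914 to 64490251), which inserts iron to complete haem, had 1674 in WT against 1995 in KO, for a log2 ratio of 0.25 that exceeded those of 87.6% of genes. The median log2 ratio was 0.28 over the 4 mitochondrial steps and −0.08 over the 3 cytosolic steps. This division by compartment was noticed after the ratios were seen, and without values per pool it was not tested.

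**Figure D1:**
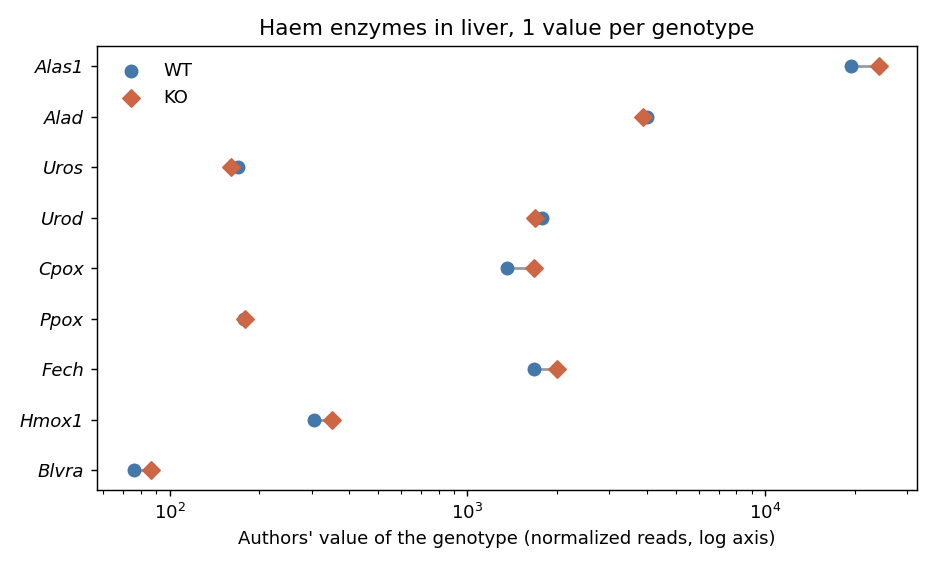
Values of the haem enzymes in WT (circles) and KO (diamonds), in normalized reads on a log axis, with 1 combined value per genotype and therefore no error bar. *Alas1* lies highest, at 19344 in WT and 24144 in KO, and the markers of *Ppox*, at 178 and 179, coincide.

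Both breakdown enzymes were listed slightly higher in KO. *Hmox1* (chromosome 8 from 75093621 to 75100589) had 306 normalized reads in WT against 352 in KO, for a log2 ratio of 0.20. *Blvra* (chromosome 2 from 127070665 to 127097084), the weakest of the 9 genes, had 75.9 in WT against 86.8 in KO, for a log2 ratio of 0.19. They exceeded the log2 ratios of 83.3% and 82.7% of genes.

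Because reads are whole numbers, the mean of a weakly expressed gene can fix its reads in each library, and *Blvra* was the only haem enzyme weak enough to try. For *Blvra* 3 sets of reads gave the deposited mean, so its reads per library were not resolved. The KO mean was above the WT mean in all 3 sets, with log2 ratios of 0.23, 0.83 and 2.18. On these means 2 of the sets would lie past 1.5-fold. The set at 0.23 lies closest to the deposited 0.19. Its KO libraries ran from 69.5 to 115 normalized reads, against 10.6 to 222 and 13.0 to 274 in the other 2. In *Cd163*, *Marco* and *Lyve1*, the resolved list genes nearest in level, recovered means gave 0.22, 0.81 and −0.46. Their deposited ratios were 0.19, 0.62 and −0.35. In none of the 3 *Blvra* sets did the 3 KO libraries all lie above the 3 WT libraries.

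Counted on the deposited values, 0 of the 9 haem enzymes passed 1.5-fold in either direction, where 7.35% of all genes did (1.57% higher and 5.79% lower in KO). With the higher value at least 25% above the lower, the count was also 0, where 24.7% of all genes passed. Of those genes 940 were higher in KO and 1868 lower, and *Alas1*, 24.8% higher, fell just short of this limit. At 2-fold the count was 0, where 0.897% of all genes passed. A log2 ratio above 0 was found in 6 of the 9, against 42.3% of all genes. The upper quartile of all genes, a log2 ratio of 0.13, was exceeded by 5 of the 9, against 25% of all genes. This count was chosen after the ratios were seen. It is not particular to these enzymes, as 38 of the 99 genes of the related lists below exceeded the same quartile. By list this ran from 0 of 6 hepatocyte markers to 3 of 4 scavenging genes, with 5 of 9 NRF2 targets and 6 of 9 Kupffer cell markers. The median of the 9 log2 ratios was 0.19. The 9 genes were read in the same pools and are not replicates of the condition, so no p value is given for these counts.

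**Figure D2:**
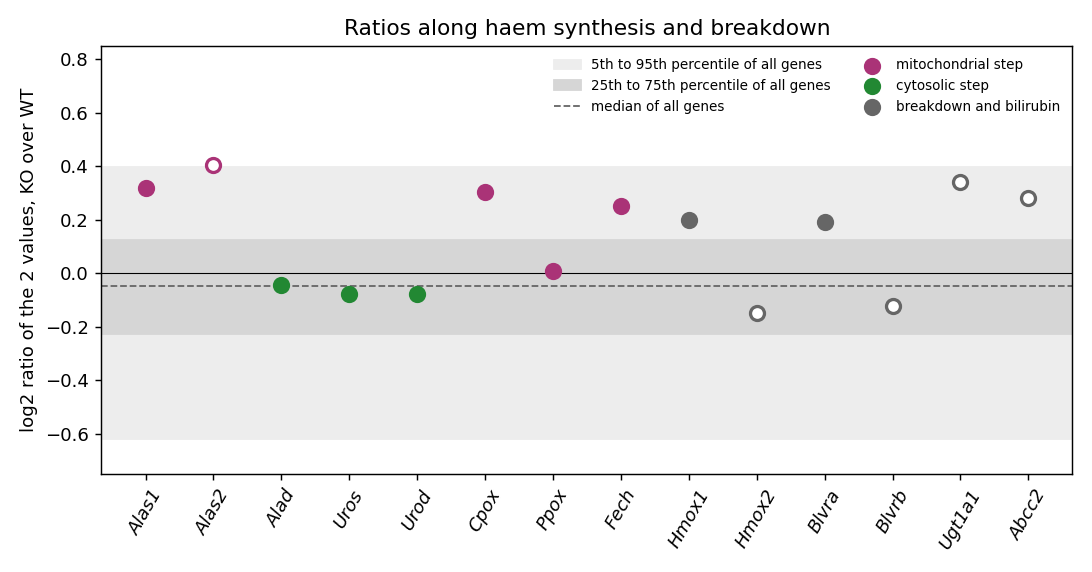
Log2 ratio of KO over WT for steps from *Alas1* to bilirubin export, with the 9 haem enzymes as filled circles and isoenzymes and neighbouring steps as open circles. Shaded bands span the middle 50% and 90% of the 11367 genes. *Alas1* at 0.32, *Cpox* at 0.30 and *Fech* at 0.25 lie above the darker band, and the cytosolic steps lie inside it.

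The isoenzymes did not follow their partners in every case. *Alas2*, the aminolaevulinic acid synthase of red cell precursors, had 2105 normalized reads in WT against 2786 in KO, for a log2 ratio of 0.40. Per kilobase it stood at 1235, against 8047 for *Alas1*. *Hmox2*, the constitutive haem oxygenase, went the other way from *Hmox1*, with 675 in WT and 609 in KO and a log2 ratio of −0.15. *Blvrb*, which reduces flavins and biliverdin IX beta, had 3152 in WT against 2897 in KO, for a log2 ratio of −0.12. Further along, *Ugt1a1*, which conjugates bilirubin, had 6827 and 8650 (log2 ratio 0.34), and *Abcc2*, which exports the conjugate into bile, had 2729 and 3315 (log2 ratio 0.28). Of these 5 genes, 0 passed 1.5-fold, where 7.35% of all genes did. *Ugt1a1* shares its last exons with the other *Ugt1a* genes, so reads could be divided among them.

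Genes of haem transport and mitochondrial supply, not all of them transporters, spread more widely than the haem enzymes. Of 17 listed, 15 were in the table, and 1 was past 1.5-fold as higher in KO and 1 as lower, with a median log2 ratio of −0.05. Over all 11367 genes, 1.57% were past 1.5-fold as higher, 5.79% as lower, and 42.3% had a ratio above 0. These shares stand beside the counts of this list and of those below. *Clpx*, the mitochondrial unfoldase that acts on aminolaevulinic acid synthase, had 777 normalized reads in WT against 419 in KO, for a log2 ratio of −0.89. *Slc25a37*, the mitochondrial iron importer mitoferrin 1 of red cell precursors, had 110 in WT against 192 in KO, for a log2 ratio of 0.80. Among the 4 genes of haem and haemoglobin scavenging, all ratios were above 0 and none passed 1.5-fold, from 0.07 for *Hpx*, the plasma haem carrier haemopexin, to 0.26 for *Lrp1*, its receptor.

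Regulators of *Alas1* were listed on both sides of 0. Of the 10 genes, 7 had a log2 ratio above 0 and none passed 1.5-fold. *Foxo1*, a fasting transcription factor that acts on *Alas1*, had 478 normalized reads in WT against 611 in KO, for a log2 ratio of 0.35. *Ppargc1a*, its coactivator in fasting, had 103 in WT against 76.2 in KO, for a log2 ratio of −0.44. *Nr1d1*, a haem-binding repressor of the circadian clock, had the lowest ratio of the list, −0.51, from 3497 in WT to 2455 in KO. *Nrf1*, whose recognition letters are capitalized in the *Alas1* promoter, had 110 and 118, a log2 ratio of 0.10. The fasting genes gave a median log2 ratio of 0.12 over 6 genes, with *G6pc*, the last enzyme of glucose output, highest at 0.45.

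Regulators of *Hmox1* included the single gene of both regulator lists that passed 1.5-fold. *Maff*, a small MAF protein that partners NRF2 and BACH1, had 50.2 normalized reads in WT against 107 in KO, for a log2 ratio of 1.09. The other 5 genes were below 1.5-fold. *Nfe2l2*, which encodes NRF2, had 436 in WT and 435 in KO, and *Bach1*, the haem-sensing repressor of *Hmox1*, had 167 and 177. Of 10 NRF2 targets, 9 passed the filter and none passed 1.5-fold, with a median log2 ratio of 0.13. *Gclc*, the catalytic subunit of glutathione synthesis, was highest at 0.40, from 1057 to 1390, and *Nqo1*, a quinone reductase, was lowest at −0.13.

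The haem proteins that take up most of the product had a median log2 ratio of −0.06 over 14 genes, with 6 above 0 and 8 below. Their summed value went the other way from the median, with 551760 normalized reads in WT and 614523 in KO (log2 ratio 0.16). *Cyp4a14*, a fatty acid hydroxylase, was highest at 0.51, and *Cyp7a1*, the rate-limiting enzyme of bile acid synthesis, was the single gene past 1.5-fold, at −1.11. *Cyp2e1*, with 208753 in WT and 240352 in KO the most strongly read P450 of the list, had a log2 ratio of 0.20.

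**Figure D3:**
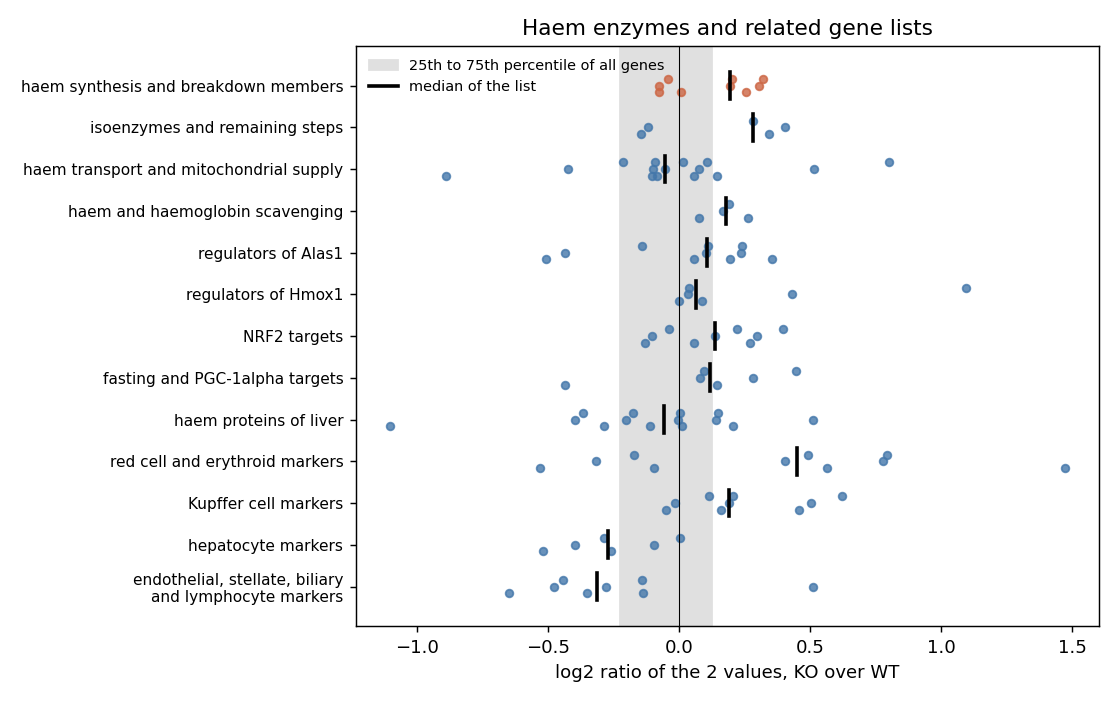
Log2 ratio of KO over WT for every gene that passed the filter in the haem enzymes (top row) and in each related list, with the list median as a black bar and the middle 50% of all genes shaded. The haem enzymes span −0.08 to 0.32, and the red cell markers reach 1.47.

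Several markers of red cells, haemoglobin genes among them, were listed higher in KO, while the haem enzymes ran from −0.08 to 0.32 in log2 ratio. *Alas2* is one of these markers. Of 18 such markers, 17 were in the table and 10 passed the filter. Of these, 6 had log2 ratios above 0 and 4 below, and 3 were past 1.5-fold as higher in KO (*Slc4a1*, *Hbb-bs* and *Hbb-bt*) and 0 as lower, with a median log2 ratio of 0.45. Their summed value was 119065 normalized reads in WT and 180639 in KO, of which the 4 haemoglobin genes made up 116678 and 177515. *Slc4a1*, the anion exchanger of the red cell membrane, had 46.6 in WT and 129 in KO. *Hba-a1* had 55601 in WT against 82090 in KO, for a log2 ratio of 0.56, and *Hbb-bs* had 25147 and 43522, a log2 ratio of 0.79. *Klf1*, a transcription factor of red cell precursors, had 142 and 133, and *Sptb* was lowest at −0.53. *Gata1* and *Epb42* had 0 recovered reads in all 3 WT libraries and at most 1 and 3 in a KO library. *Hbb-b2* had 0 in all 3 KO libraries and 1 read in a single WT library. With so few reads, no difference between the genotypes can be read from these genes. Reads of the near-identical *Hba-a1* and *Hba-a2*, and of *Hbb-bs* and *Hbb-bt*, could be divided between the copies. The part of red cell RNA in the ratios of the haem enzymes was not tested. In bulk liver RNA, more cells of a type and more RNA per cell cannot be told apart.

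Kupffer cells, the liver macrophages that clear red cells and express *Hmox1*, were checked in the same way. Of 9 markers, 1 was past 1.5-fold as higher in KO and 0 as lower, with a median log2 ratio of 0.19 and summed values of 3199 in WT and 3693 in KO. *Marco*, a scavenger receptor, had 47.8 in WT and 73.5 in KO (log2 ratio 0.62), and *Clec4f*, which is restricted to Kupffer cells, had 895 and 865 (log2 ratio −0.05). The hepatocyte markers identified the tissue as liver, led by *Alb* with 1.33e+06 in both genotypes. They had a median log2 ratio of −0.27 over 6 genes, with *Apob* lowest at −0.52. Markers of endothelial, stellate, biliary and lymphoid cells had a median of −0.32 over 8 genes, with 1 past 1.5-fold as lower in KO (*Ptprc*, the common leukocyte antigen, at −0.65) and *Epcam* at 0.51. Whether cell makeup bears on *Hmox1* was not tested.

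Reads per library were recovered for the weakly expressed genes of these lists, so that the spread between pools could be seen there. Among 8081 genes whose normalized reads summed to at most 400, a single set of reads was left for 8059 (99.7%). Which pool each library is cannot be told, so libraries are given by size factor, 1.31, 1.04 and 0.886 in KO and 1.22, 0.879 and 0.818 in WT. Among the 13 genes of the lists with sums from 60 to 400, 0 had all KO libraries above or all below the WT libraries, where 3.06% of the 3303 genes of that range lay above throughout and 2.63% below. *Ank1*, a red cell ankyrin with a sum below that range, had 2.29, 4.83 and 22.6 normalized reads in KO and 2.45, 1.14 and 6.11 in WT, so that its groups overlapped and a single KO library stood well above the rest.

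Kupffer cell and NRF2 target genes showed overlapping groups as well. *Marco* had 52.6, 49.2 and 130 normalized reads in the KO libraries and 13.9, 69.4 and 48.9 in the WT libraries. Its KO mean was 77.2 ± 45.6 (SD, n = 3 libraries) and its WT mean 44.1 ± 28.1 (SD, n = 3 libraries). *Cd163*, the haemoglobin scavenger receptor, had 86.1, 65.7 and 56.5 in KO and 73.5, 60.3 and 45.2 in WT. The log2 ratio of its recovered means was 0.22, where the deposited values give 0.19. *Timd4* had 43.9 ± 10.6 in KO and 44.7 ± 6.23 in WT (SD, n = 3 libraries). *Nqo1* had 27.4, 65.7 and 20.3 in KO and 35.1, 54.6 and 37.9 in WT.

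**Figure D4:**
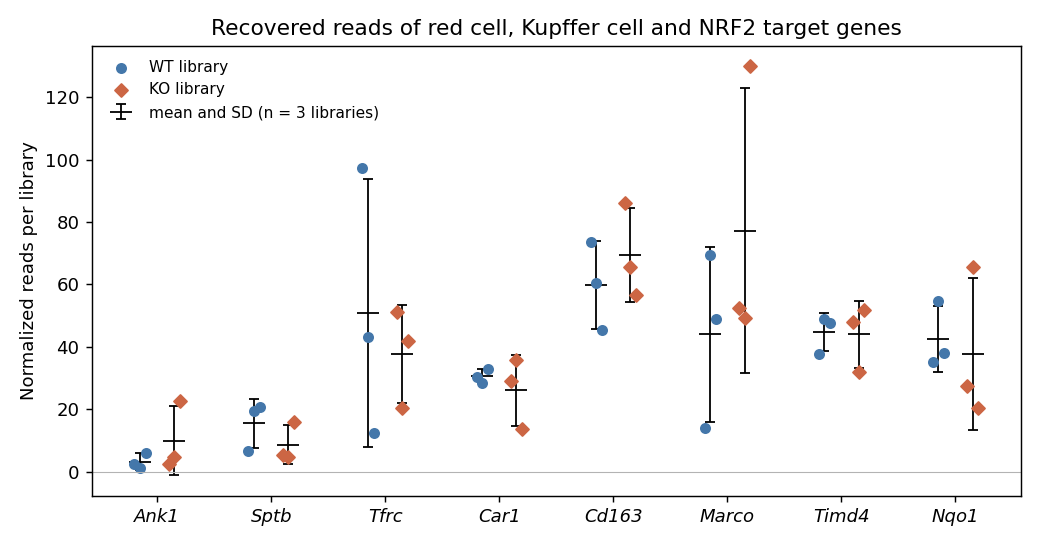
Normalized reads in each recovered WT (circles) and KO (diamonds) library for red cell genes, Kupffer cell genes and *Nqo1*, with the mean and SD of 3 libraries per genotype. The groups overlap in every gene shown, and the KO libraries of *Marco* run from 49.2 to 130.

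The genotypes were compared with limma over the 3303 resolved genes with sums from 60 to 400. Of these genes, 1 (*Moap1*, named because it was the only one) had an adjusted p under 0.05 (0.0303%), and 64 had an unadjusted p under 0.05 (1.94%). *Moap1* had 0 in the 3 KO libraries and 13.1, 38.7 and 22.0 normalized reads in the WT libraries (log2 difference −4.55, standard error 0.47, limma adjusted p = 0.0143). When limma let the expected variance follow the mean level, the standard error became 1.48 and the adjusted p 0.999, and 0 genes passed (54 at an unadjusted p under 0.05). Of the 13 genes of the lists in that range, 0 had an adjusted p under 0.05 and 0 an unadjusted p under 0.05. They were *Car1*, *Cd163*, *Cd79a*, *Epcam*, *Krt19*, *Lrat*, *Lyve1*, *Marco*, *Nqo1*, *Ptprc*, *Sptb*, *Tfrc* and *Timd4*. Differences on the log2 scale ran from −0.86 (standard error 0.57) for *Ptprc* to 0.92 (standard error 0.65) for *Marco*. The size of both differences depended on which library was left out, though neither changed sign. The difference of *Marco* was 0.25 without the WT library of size factor 1.22 and 0.47 without the KO library of size factor 0.886. That of *Ptprc* was −0.40 without the same WT library and −0.44 without the KO library of size factor 1.04. *Tfrc*, the transferrin receptor through which red cell precursors take up iron, differed by −0.09 (standard error 0.72), with WT libraries from 12.2 to 97.2 normalized reads. The adjusted p of limma was 0.999 for all 13 genes. The standard errors of the 13 genes ran from 0.40 to 0.77. They were measured in weakly read genes, and the spread of the haem enzymes cannot be read from them.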

How the data were processed

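Liver RNAseq libraries of 3 WT and 3 KO pools were grouped by the sample labels. The submitters' processing notes name HISAT2, StringTie, Cufflinks, GATK, Bowtie2 and RSEM and the build mm10. The authors deposited counts of clean reads per library, percent values for mapping, and, for each gene, a signal value per genotype in normalized reads (DESeq2 size factors). The table also holds the authors' log2 ratios and p values, which were not used. With 1 value per genotype, no test was run on these values.

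The log2 ratio of the 2 values was calculated without a pseudocount for the 11367 genes with a mean of at least 10. Each gene was placed among all of these, and 1.5-fold was the limit for counting. The 9 genes and the 13 lists were chosen with earlier results of these data known. Named genes were the 9 enzymes, *Txndc5*, the isoenzymes and remaining steps, the highest and lowest gene of each list, every list gene past 1.5-fold and list genes with recovered reads. Others named for comparison (*Nrf1*, *Bach1*, *Cyp2e1*, *Klf1*, *Hba-a1*, *Ank1*) were chosen after their values were seen. Some genes of the lists are not reported here and were left out of the list counts, medians and figures.

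Whole reads were recovered from the sum of normalized reads over 6 libraries, with the worth of 1 read taken as a value that at least 20 genes had in common and the genotype of a library from the column in which those genes were higher. A tolerance of 2.5 roundings was allowed, and 1 remaining set was required. On simulated data 7577 of 7591 genes with sums up to 400 were resolved, with the right reads in 7577. The simulated levels came from genes already resolved, with the same mean in both genotypes. Their values were built by the rule that the recovery assumes, so the simulation cannot check whether the deposited values follow that rule. limma (version 3.58.1, R 4.3.3) was run on log2(normalized reads + 1), with Benjamini-Hochberg adjustment over 3303 genes, after a test on simulated data, with 1 prior variance for all genes and, as an alternative added later, a variance trend. Separate pools were replicates. Gene positions came from GENCODE M21 on GRCm38 (mm10). The promoter motifs, the grouping of steps by compartment, the count above the upper quartile, the genes of the plot of recovered reads, and the alternatives of minimum means of 100 and 1000, equal sums, length centring and the variance trend were chosen after values were seen.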

Additional observations from a re-analysis of the deposited data

How the results depend on the processing

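No paired analysis was possible because the labels name no pairs of WT and KO pools and the values per gene carry no pool number. On the deposited values no haem enzyme passed 1.5-fold under the alternatives tried. Of the 3 possible sets of reads of *Blvra*, 2 would, both further from its deposited ratio than the remaining set. Above the upper quartile 5 of 9 stayed, except with a minimum mean of 100 (4 of 8) or 1000 (3 of 5). A change of over 0.01 in a median was counted as a move. The median log2 ratio of the haem enzymes, 0.19, became 0.17 with a pseudocount of 10 and 0.24 after centring on all genes, and that of the related lists went from 0.05 to 0.10 with this centring. Among alternatives chosen after the data were seen, minimum means of 100 and 1000 gave 0.10 and 0.25 for the haem enzymes and 0.066 and 0.079 for the lists. Equal sums gave 0.29 and 0.15, and centring on genes of similar length 0.26 and 0.079. With equal sums 9 of 9 enzymes and 57.5% of all genes had ratios above 0 (6 of 9 and 42.3% before), and 38.9% of the calls over all genes were higher in KO, against 21.3%. With length centring *Urod* turned from −0.08 to 0.04. The 25% limit, which *Alas1* missed narrowly at 24.8%, was not counted again under centring or equal sums, nor was the share of all genes. After centring on all genes *Alas1* (log2 ratio 0.37) and *Cpox* (0.35) were past it, and with length centring *Alas1* (0.35). With equal sums *Alas1* (0.41), *Cpox* (0.40) and *Fech* (0.35) were past it. Without that share beside them, these crossings are not a result about the enzymes. Centring on all genes and equal sums move every gene alike, and *Alas1* stayed above 91.6% of genes. Of 99 related genes, 6 were past 1.5-fold as higher and 3 as lower, against 1.57% and 5.79% of all genes. The counts of 6 and 3 became 19 and 14 at a limit of 25%, 2 and 1 at 2-fold, and 11 and 2 with equal sums. Of all 11367 genes, 940 and 1868, 18 and 84, and 295 and 463 were past these limits. At a minimum mean of 100, 3 of 82 related genes were higher and 2 lower, where 83 and 193 of all 7063 genes were. At 1000, 2 of 51 related genes were higher and 0 lower, where 13 and 20 of all 1765 genes were. The causes were not tested, except that stricter minimums keep fewer genes. Leaving out 1 recovered library at a time, limma called between 0 and 1 genes (26 to 152 with an unadjusted p under 0.05), and with a variance trend 0. *Moap1* lost its call without any 1 KO library or without the WT library of size factor 0.879 or 0.818 (limma adjusted p from 0.0668 to 0.180). Log2 differences changed sign in *Car1* (−0.59 to 0.074), *Krt19* (−0.61 to 0.26), *Lyve1* (−0.95 to 0.11), *Nqo1* (−0.80 to 0.026), *Tfrc* (−0.86 to 0.58) and *Timd4* (−0.18 to 0.17). Without changing sign, *Marco* ran from 0.25 to 1.37, *Ptprc* from −1.22 to −0.40, *Epcam* from 0.081 to 1.39, *Cd163* from 0.038 to 0.38, *Cd79a* from −0.98 to −0.31, *Lrat* from −0.74 to −0.17 and *Sptb* from −1.30 to −0.53. Depth per library could not be used for the haem enzymes.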
